A study of Mus musculus with 2 samples.

Results

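MHC class II high macrophages are tumor-associated macrophages (TAMs) that carry the C1q complement genes and, at the same time, high levels of the genes that present antigen to CD4+ T cells. They were studied in subcutaneous LLC tumors, grown from the mouse Lewis lung carcinoma cell line. Members were chosen by their own RNA. Each had at least 1000 UMIs (unique molecular identifiers, 1 per captured RNA molecule), less than 10% mitochondrial UMIs, and no more than 2 UMIs of the cell cycle genes Mki67 and Top2a. The remaining limits were on counts per 1000000 UMIs of the cell (CPM): a low sum of the cancer cell genes Rhox5, Krt8, Krt18 and Hmga2, at least 1500 CPM of the myeloid genes Tyrobp, Fcer1g and Ctss, at least 1000 CPM of C1qa, C1qb and C1qc, and at least 4000 CPM of H2-Aa, H2-Ab1 and H2-Eb1. In all 811 of 40638 barcodes met the rule.

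One single-cell RNA library was made for each of 2 groups, and each library held cells pooled from 3 tumors. Control tumors (sGC-Ctr) grew in C57BL/6 mice of the genotype Gucy1b1 flox/flox, and sGC-∆PC tumors in C57BL/6 mice labelled Cspg4-CreERT2::Gucyc1b1 flox/flox. Gucy1b1 encodes the beta subunit of soluble guanylate cyclase (sGC), the receptor for nitric oxide, and Cspg4 (NG2) drives the tamoxifen-activated Cre in pericytes. Tamoxifen was given to both groups, in 5 doses, when the mice were 4 weeks old. LLC cells were injected at 8 weeks, and tumors were taken 2 weeks later. The floxed alleles are thus shared by both groups, and the Cspg4-CreERT2 allele, which the paper calls a knock-in, differs. Because genotype and library coincide, a difference between genotypes and a difference between 2 libraries cannot be told apart. With 1 library per group there is no test, and the 95% intervals reflect the counting of cells (for shares) or of molecules (for levels and ratios) within a library, not the spread between tumors.

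MHC class II molecules are assembled from an alpha and a beta chain. The invariant chain CD74 guides them to endosomes, the H2-DM proteins help to load peptide there, and the coactivator CIITA switches the genes on, above all after interferon gamma. In tumors, macrophages with high MHC class II are commonly contrasted with macrophages rich in the mannose receptor. The C1q genes mark mature tissue and tumor macrophages.

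The class II genes share short promoter elements that CIITA and its partner factors read together, so the 250 bases before the start of H2-Aa (GRCm38.p6, chr17:34287824-34288073, minus strand) and of H2-Eb1 (chr17:34305617-34305866, plus strand) are shown from RefSeq. Capitals mark the X and Y box letters searched. The Y box letters were searched in both genes, the X box letters TGACGTCA in H2-Aa only and CTAGCAAC in H2-Eb1 only.
H2-Aa: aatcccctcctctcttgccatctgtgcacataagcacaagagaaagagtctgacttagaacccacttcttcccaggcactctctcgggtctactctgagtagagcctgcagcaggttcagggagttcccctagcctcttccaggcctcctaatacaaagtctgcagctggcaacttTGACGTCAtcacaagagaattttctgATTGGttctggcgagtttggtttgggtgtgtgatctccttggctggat
H2-Eb1: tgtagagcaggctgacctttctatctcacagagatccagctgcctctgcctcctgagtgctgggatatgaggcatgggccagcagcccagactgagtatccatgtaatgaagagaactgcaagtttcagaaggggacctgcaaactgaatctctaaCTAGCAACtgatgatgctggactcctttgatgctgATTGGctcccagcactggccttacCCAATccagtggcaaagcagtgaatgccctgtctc
H2-Aa held TGACGTCA from 74 to 67 bases before the start and ATTGG from 48 to 44. H2-Eb1 held CTAGCAAC from 94 to 87 bases before the start, ATTGG from 59 to 55, and ATTGG on the other strand (printed as CCAAT) from 35 to 31. Over 32851 promoters of the same length and on both strands, ATTGG occurred in 33.8%, TGACGTCA in 1.55% and CTAGCAAC in 1.13%. A match describes letters, not binding.

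The sGC-Ctr library gave 260 members among 15007 barcodes, and the sGC-∆PC library 551 among 25631. Of the barcodes that passed the UMI and mitochondrial limits, 12281 and 21082, members made up 2.12% (1.87 to 2.39) and 2.61% (2.4 to 2.84). Among C1q macrophages, the cells that met every step of the rule but the one on H2 genes, the share was 14.2% (12.7 to 15.9, 260 of 1826) in sGC-Ctr and 23.5% (21.8 to 25.2, 551 of 2349) in sGC-∆PC. With every cell thinned to 1000 UMIs before the rule was applied, the shares were 14.5% and 23.2%. Cells with low cancer RNA were 3945 of 12281 in sGC-Ctr but 4823 of 21082 in sGC-∆PC, so the share of all barcodes and the share of C1q macrophages have different bases.

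The level of class II RNA was spread widely among C1q macrophages. None of the 3 H2 genes was detected in 718 cells (39.3%) of sGC-Ctr and 702 (29.9%) of sGC-∆PC. Above that, sGC-∆PC held a larger share of cells at every range of H2 level from 500 up to 16000 CPM: 5.97% of sGC-Ctr and 9.92% of sGC-∆PC cells lay between 8000 and 16000 CPM. It held a smaller share than sGC-Ctr from 1 to 100 CPM (8.09% against 15.1%), from 100 to 500 CPM (19.2% against 22.9%) and from 32000 CPM up (0.0851% against 0.329%). The low ranges depend on depth. A cell under 10000 UMIs cannot lie from 1 to 100 CPM, and 1 UMI in a cell of 1000 to 2000 UMIs gives 500 to 1000 CPM. Cells of 1000 to 2000 UMIs were 16 of 1826 in sGC-Ctr and 431 of 2349 in sGC-∆PC. The part of depth in these shares was not tested. From 16000 to 32000 CPM the shares were 4.65% (3.73 to 5.72) and 5.36% (4.49 to 6.35). At the limit itself, 29 and 72 cells lay just outside (3000 to 4000 CPM) and 16 and 65 just inside (4000 to 5000 CPM). The lowest members had 4028 and 4010 CPM, and the highest cells left out 3965 and 3979 CPM.

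**Figure D1:**
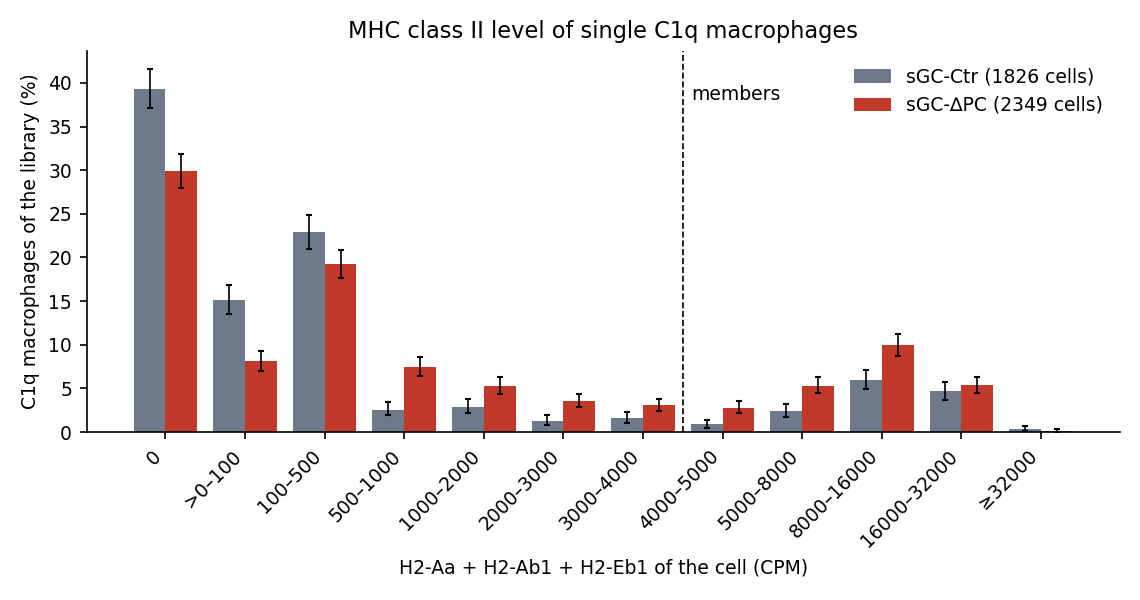
Share of C1q macrophages (%) in each range of the summed level of H2-Aa, H2-Ab1 and H2-Eb1 (CPM of the cell, ranges of unequal width) in sGC-Ctr (1826 cells) and sGC-∆PC (2349 cells); bars are shares, error bars exact 95% binomial intervals, and the dashed line is the limit of 4000 CPM. Cells without any H2 UMI were 39.3% of the sGC-Ctr and 29.9% of the sGC-∆PC cells, against 5.97% and 9.92% between 8000 and 16000 CPM.

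Depth differed between the libraries. Members held 2687254 UMIs in the sGC-Ctr library and 4463810 in the sGC-∆PC library, with medians of 9802.5 and 6974 UMIs and of 2743 and 2255 genes per cell. The lower quartile was 7247.5 UMIs in sGC-Ctr but 2375.5 in sGC-∆PC, so that the sGC-∆PC members had a tail of shallow cells. In sGC-Ctr no member was found among the 16 C1q macrophages of 1000 to 2000 UMIs, with an exact upper bound of 20.6%, whereas 108 of 431 such cells were members in sGC-∆PC. Comparing cells of like depth, the share was 17.7% (14.9 to 20.9) and 24.4% (20.6 to 28.4) at 5000 to 10000 UMIs, and 11.7% (9.71 to 13.9) and 23.4% (20.3 to 26.6) at 10000 to 20000 UMIs. At 2000 to 5000 UMIs it was 17.9% (11.3 to 26.2) and 22.4% (19.0 to 26.0). The sGC-∆PC library had the higher share in each of these ranges, as a description of 2 libraries.

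**Figure D2:**
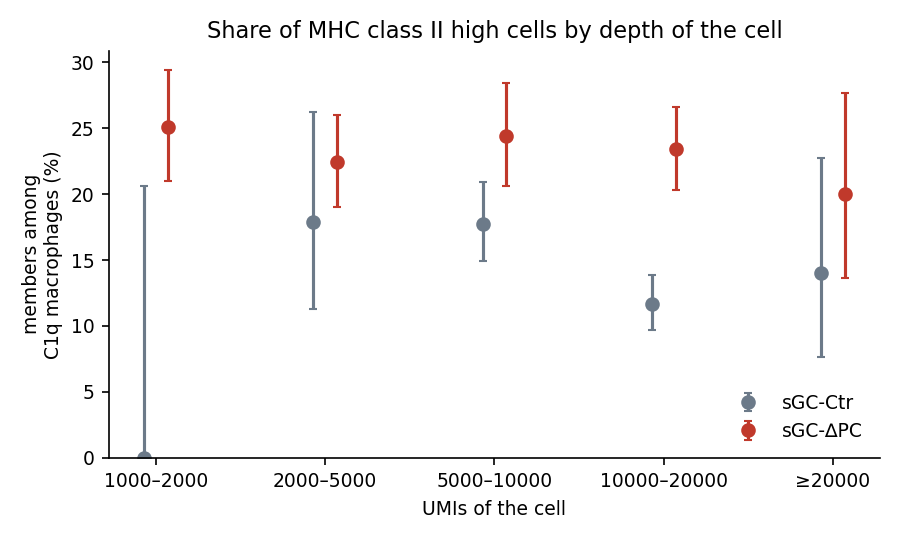
Share of members among C1q macrophages (%) against the UMIs of the cell, in 5 ranges, for sGC-Ctr and sGC-∆PC; points are shares and error bars exact 95% binomial intervals. The sGC-∆PC share stayed between 20% and 25.1%, and the sGC-Ctr share was 11.7% at 10000 to 20000 UMIs.

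Of the 12 macrophage markers, C1qa, C1qb and C1qc were part of the rule and are no check of the label. The other 9 were all measured in members, with Csf1r, the receptor for the macrophage growth factor CSF1, at 425 CPM in sGC-Ctr and 372 CPM in sGC-∆PC, and the lysosomal protein gene Cd68 at 551 and 505 CPM. Several markers of conventional dendritic cells, the other tumor cells rich in class II, were near 0: Flt3 gave 8 and 3 UMIs in all members, Zbtb46 gave 6 and 5, and Xcr1 gave 15 and 5. The 12 dendritic cell markers together came to 197 and 172 CPM, of which 136 and 131 CPM were Sirpb1c and 19.4 and 16.4 CPM Batf3. The list was lower in the C1q macrophages under the H2 limit, at 59.5 and 70.8 CPM. It was higher in myeloid cells low in C1q but over the H2 limit, at 718 and 544 CPM. Monocyte markers, led by Ccr2, summed to 777 and 829 CPM, and resident macrophage markers, led by Mrc1, to 844 and 831 CPM. B cell markers summed to 28.3 and 16.1 CPM, with Ms4a1 and Pax5 among the genes at 0, and T cell markers to 3.35 and 7.62 CPM. Granulocyte markers, led by S100a9, came to 223 and 179 CPM. One of them, G0s2, had 20 and 103 UMIs (log2 ratio of CPM, sGC-∆PC over sGC-Ctr, 1.63), with 75% of the former and 67.0% of the latter in 1 cell. The sign of this ratio turned under 6 alternatives, to -1.69 in members with at least 5000 UMIs and to -0.92 at an H2 limit of 8000 CPM, for example. In the same order, fibroblast markers, led by Col3a1, came to 448 and 365 CPM, and endothelial markers, led by Pecam1, to 17.9 and 41.4 CPM. Pericyte markers summed to 2.60 and 2.69 CPM. Gucy1b1, the deleted gene, had no UMI in the members of either library, so it could not serve as a check of genotype here, and Cspg4, whose promoter drives Cre, had 11 UMIs (4.09 CPM) and 19 UMIs (4.26 CPM).

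RNA free in the cell suspension was gauged from cells that should lack these genes. In granulocytes, H2-Aa had 41.7 CPM (19 UMIs) in the sGC-Ctr library and 85.2 CPM (50 UMIs) in the sGC-∆PC library, and in lymphocytes 5.38 CPM (2 UMIs) and 95.1 CPM (31 UMIs). C1qa had 92.1 and 95.4 CPM in granulocytes and 37.6 and 67.5 CPM in lymphocytes. H2-Aa was found in 2 of 66 and 11 of 63 lymphocytes and in 16 of 193 and 36 of 215 granulocytes. Some of these cells held much H2 RNA, up to 635 and 9001 CPM of the 3 genes in a lymphocyte and 2030 and 10399 CPM in a granulocyte, and whether the sums are free RNA alone was not tested. Members reached 4675 and 4266 CPM of H2-Aa and 4046 and 3339 CPM of C1qa. Of the barcodes in the files 131 occurred in both libraries, and none was a member in both. Scrublet called 1 member of sGC-Ctr a doublet, and called none of the 21082 cells of sGC-∆PC, where the caller did not work.

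Against the other C1q macrophages, members differed in a way that both libraries shared. These values describe how the cells were sorted by the rule and carry no test. Besides Cd74 (11610 against 361 CPM in sGC-Ctr and 10092 against 597 CPM in sGC-∆PC), the genes highest in members by the smaller of the 2 ratios were Ccl17, H2-M2, P2ry10, Klrb1b, Ciita, Dnase1l3, Mgl2, Ly6i, Gpr171, Pdcd1lg2 and Htr7. In sGC-Ctr, Ccl17 rested on 11 UMIs in 3 members against 0 UMIs, and in sGC-∆PC on 227 against 9 UMIs. Ciita, the class II coactivator, was at 118 against 2.18 CPM in sGC-Ctr and at 107 against 5.19 CPM in sGC-∆PC. Mgl2, a lectin of antigen-presenting myeloid cells, was at 105 against 4.59 CPM and at 114 against 8.84 CPM. Cxcl9, an interferon gamma induced chemokine that draws T cells, was at 1277 against 84.1 CPM and at 840 against 118 CPM. Itgax, which encodes CD11c, was at 70.0 against 10.8 CPM and at 80.4 against 9.51 CPM, and Ccr2, a receptor of monocytes newly drawn from blood, at 601 against 198 CPM and at 576 against 200 CPM.

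Among genes with at least 50 UMIs in the members of both libraries together, the limit used for the highest genes too, the lowest in members were Ctla2a, Pmp22, Fcrls, Gas6, Bhlhe41, F13a1, Serpinb6a, Ctla2b, Gm16104, Cbr2, Ctsk and Ch25h. That limit left out genes that were lower still, such as Lyve1 (2.6 against 48.7 CPM in sGC-Ctr and 2.02 against 38.9 CPM in sGC-∆PC). Cbr2, a marker on the resident macrophage list, was at 63.6 against 322 CPM in sGC-Ctr and at 66.8 against 238 CPM in sGC-∆PC, and the folate receptor gene Folr2, of the same list but not among the 12, at 113 against 359 CPM and at 105 against 283 CPM. Mrc1, the mannose receptor gene and also of that list, was at 322 against 748 CPM in sGC-Ctr and at 337 against 571 CPM in sGC-∆PC. Csf1r, in contrast, lay close to equality, with log2 ratios of members over the other C1q macrophages of -0.06 in sGC-Ctr and 0.07 in sGC-∆PC.

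Members also varied among themselves. Split by their H2 level into 4000 to 8000, 8000 to 16000, and 16000 CPM or more, they numbered 60, 109 and 91 in sGC-Ctr and 190, 233 and 128 in sGC-∆PC. C1qa was flat across the 3 ranges, at 4029, 4071 and 4026 CPM in sGC-Ctr and at 3357, 3325 and 3343 CPM in sGC-∆PC. Cxcl9 was higher at higher H2 level, with 857, 1266 and 1614 CPM in sGC-Ctr and 556, 834 and 1150 CPM in sGC-∆PC. Ms4a7 went the other way, from 896 to 717 and 568 CPM and from 787 to 510 and 332 CPM. Itgax had 37.1, 63.4 and 104 CPM in sGC-Ctr and 42.6, 66.2 and 142 CPM in sGC-∆PC. The order of the ranges was thus alike in both libraries for Cxcl9, Ms4a7 and Itgax. It differed for Cxcl10 and Mrc1. Cxcl10 had 345, 206 and 596 CPM in sGC-Ctr but 212, 149 and 130 CPM in sGC-∆PC, and Mrc1 had 466, 328 and 203 CPM but 403, 300 and 323 CPM. The median depth of the lower range was 10219 UMIs for sGC-Ctr against 3749 UMIs for sGC-∆PC, and its part in these values was not tested.

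**Figure D3:**
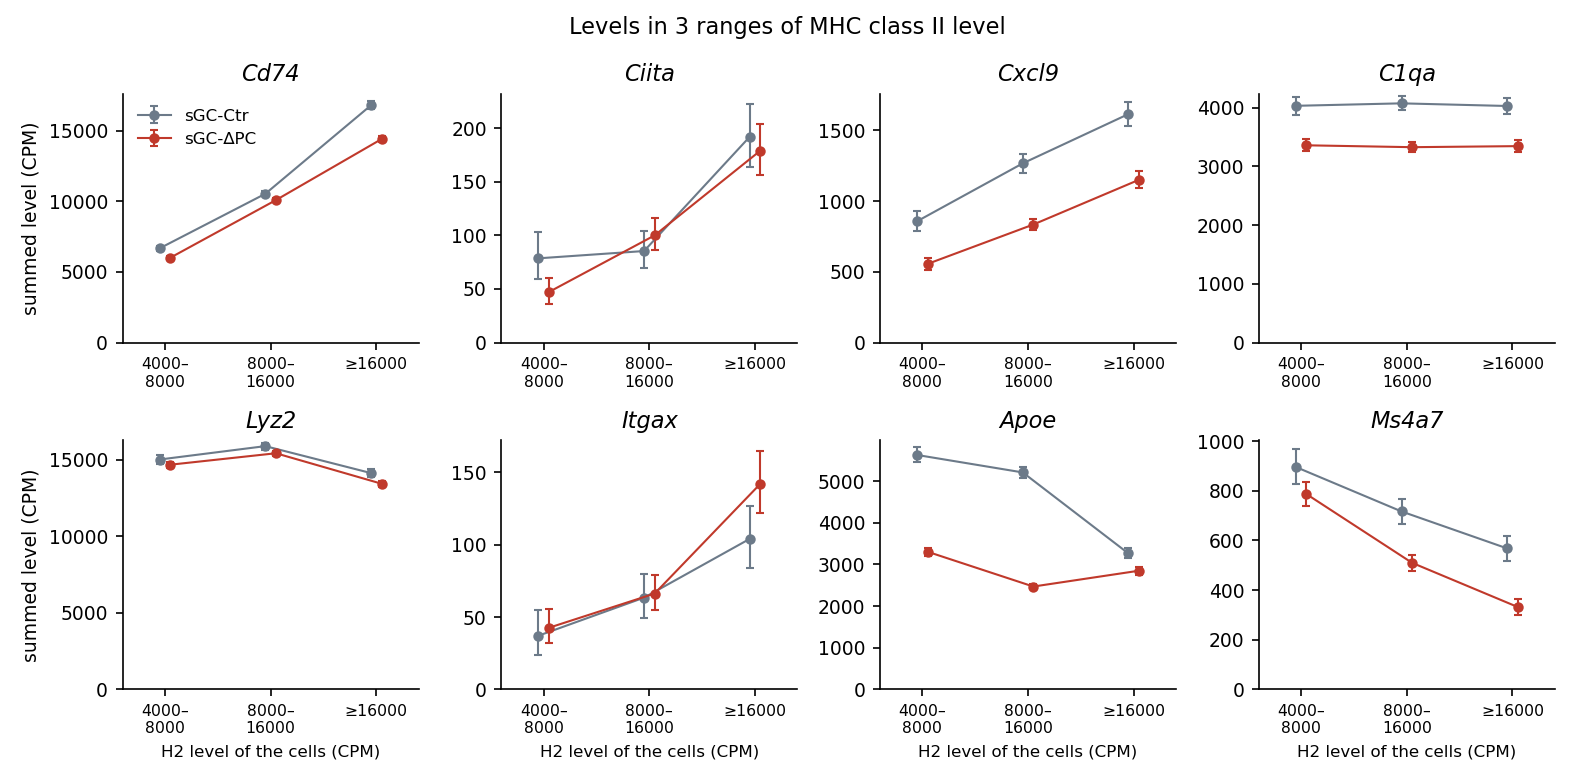
Summed level (CPM, linear axis from 0) of 8 genes in members of 3 ranges of H2 level (4000 to 8000, 8000 to 16000, and 16000 CPM or more) for sGC-Ctr and sGC-∆PC; points are sums over the cells of a library and error bars exact 95% Poisson intervals. Cxcl9 lay lower in sGC-∆PC in each range (556 against 857, 834 against 1266 and 1150 against 1614 CPM), and Ms4a7 lay lower in each as well.

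To ask how members of the 2 genotypes differed, UMIs were summed over the members of each library. Ratios are given on the log2 scale of CPM, sGC-∆PC over sGC-Ctr, and a ratio of 2-fold or more was set as the size that is called. Calls, medians and ratios after cells were left out had 0.5 UMIs added to each sum, and the ratios of single genes otherwise had none. Of 8393 genes with at least 50 UMIs, 44 (0.524%) were higher and 26 (0.310%) lower in sGC-∆PC by that size. The shares were 0.786% and 0.366% among 11193 genes of the C1q macrophages under the H2 limit, and 0.940% and 0.268% among 6705 genes of the C1q-low myeloid cells over it. The median over all genes was -0.02 (quartiles -0.18 and 0.15), and 53.5% of genes were below 0. Single cells carried part of the calls: 6 of the 44 and 4 of the 26 had at least 50% of the UMIs of the higher library in 1 cell. Without the richest cell of each library 40 and 23 of them were still past 2-fold. Most called genes were sparse, with 25 of the 44 and 17 of the 26 under 100 UMIs in both libraries together.

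The class II genes H2-Aa, H2-Ab1 and H2-Eb1, which the rule used, are given as a description. H2-Aa had 4675 CPM in sGC-Ctr and 4266 CPM in sGC-∆PC, H2-Ab1 had 4830 and 4442 CPM, and H2-Eb1 had 4385 and 3942 CPM. Cd74 was at 11610 (log2 ratio -0.20, -0.22 to -0.18) and 10092 CPM. The peptide loading genes H2-DMa (593 and 477 CPM, -0.31, -0.41 to -0.22) and H2-DMb1 (585 and 491 CPM, -0.25, -0.35 to -0.16) and the thiol reductase gene Ifi30 (1146 and 952 CPM, -0.27) were lower as well, whereas the protease gene Ctss (2003 and 1989 CPM) differed by -0.01. For Ciita (118 and 107 CPM) the interval, -0.36 to 0.06, held 0. In the list of class II presentation genes 12 of 16 were measured, none was past 2-fold, and the median was -0.15. Of these, 11 lay below 0, H2-Aa, H2-Ab1 and H2-Eb1 of the rule among them. Over all genes of members, 53.5% lay below 0 and the median was -0.02. The share of members in the upper range of H2 level was 35.0% in sGC-Ctr and 23.2% in sGC-∆PC, which moved with the ratios of the class II genes.

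Over all C1q macrophages, where no limit on H2 was set, 11 of 14 measured genes of the list lay above 0, with a median of 0.36. H2-Aa, H2-Ab1 and H2-Eb1 of the rule were among the 11. The median over all 11507 genes measured in these cells was -0.04. H2-Aa was at 675 CPM in sGC-Ctr and 1087 CPM in sGC-∆PC (log2 ratio 0.69, 0.66 to 0.72), Cd74 at 1831 and 2770 CPM (0.60) and Ciita at 17.4 and 28.4 CPM (0.71, 0.52 to 0.91). Ifi30 was among the genes below 0 there too (796 and 681 CPM, -0.23, -0.26 to -0.19). The level within members starts at the limit of 4000 CPM by the rule, so these values and those of members are not alike in kind. Among the C1q-low myeloid cells over the same H2 limit (269 and 296 cells), H2-Aa was at 7205 and 5880 CPM (-0.29, -0.33 to -0.26). This is a description only, since the limit on H2 genes selected these cells too.

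Of the 31 genes listed as induced by type I interferon, the antiviral interferons, 25 were measured in members. Among these, 23 lay below 0 and 2 above, 3 were past 2-fold, and the median was -0.38. Over all genes, 53.5% lay below 0, 0.310% were past 2-fold lower, and the median was -0.02. Past 2-fold were Ifit2 (22 and 8.51 CPM, log2 ratio -1.37, -1.99 to -0.75), Ifit3 (16.4 and 6.94 CPM, -1.24, -1.95 to -0.54) and Ifi205 (20.5 and 10.1 CPM, -1.02, -1.62 to -0.43), all lower. These 3 calls did not hold without cells with markers of other types, which left 43 and 112 members and gave 1.01 for Ifit2, 2.05 for Ifit3 and 0.09 for Ifi205. That filter dropped any member with more than a single UMI from the marker list of another cell type, whatever its depth. The lists hold genes common in members, such as Sirpb1c (365 and 586 UMIs) and Col3a1 (633 and 927 UMIs). Whether the dropped cells were of mixed type was not tested. With cells thinned before the rule, Ifit2 was at 0.16. The IFIT genes encode proteins that bind viral RNA. Isg15, a ubiquitin-like modifier, had 287 UMIs (107 CPM) in sGC-Ctr and 283 UMIs (63.4 CPM) in sGC-∆PC, a log2 ratio of -0.75 (-0.99 to -0.51). Ifitm3, the most abundant gene of the list, did not share this (1793 and 1766 CPM, -0.02), nor did the interferon signaling genes Stat2 (0.24) and Irf9 (0.14), whose intervals held 0. Few cells carried the IFIT genes: Ifit3 was found in 8 and 16 members. With every member thinned to 1000 UMIs, 8 genes of the list were measured and the median was 0.02.

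The C1q macrophages under the H2 limit differed from members here. Their type I interferon list had a median of 0.17, with 22 of 28 genes above 0. Over all genes of these cells the median was -0.04, and 41.3% lay above 0. Isg15 was at 46.8 and 60.6 CPM (log2 ratio 0.37, 0.23 to 0.51). Isg15 was thus higher in members than in these cells in sGC-Ctr (107 against 46.8 CPM), but alike in sGC-∆PC (63.4 against 60.6 CPM). In C1q-low cells over the H2 limit the list had a median of -0.10, against 0.01 over all genes of that class. Ifit3 was the only gene of the list past 2-fold, lower in sGC-∆PC, against 0.268% of all genes. Isg15 was at 190 and 135 CPM (-0.50, -0.73 to -0.27). The difference between classes was not tested, for want of replicate libraries.

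Interferon gamma targets were more mixed. The median of 25 measured genes was -0.14, with 16 below 0 and 1, Cxcl10, past 2-fold. Over all genes of members the median was -0.02, 53.5% lay below 0 and 0.31% were past 2-fold lower. Cxcl10 had 990 UMIs (368 CPM) in sGC-Ctr and 724 UMIs (162 CPM) in sGC-∆PC, 2.27-fold lower (log2 ratio -1.18, -1.32 to -1.04), and the ratio was -1.29 without the richest cell of each library but -0.52, no longer past 2-fold, without cells with markers of other types. It was found in 54 and 80 members. Cxcl9 had 3431 UMIs (1277 CPM) and 3751 UMIs (840 CPM), a log2 ratio of -0.60 (-0.67 to -0.54). It was found in 76 of 260 members of sGC-Ctr and in 186 of 551 of sGC-∆PC. The lower summed level of Cxcl9 thus did not come with a smaller share of cells that held it. Both chemokines signal through CXCR3 on T and NK cells. The receptor gene Ifngr1 (181 and 179 CPM, -0.02) had an interval that held 0, and the GTPase genes Gbp2 (219 and 184 CPM, -0.25) and Iigp1 (86.7 and 68.8 CPM, -0.33) were slightly lower. Nos2, the inducible nitric oxide synthase gene, was sparse at 20 and 64 UMIs (7.44 and 14.3 CPM, 0.95, 0.20 to 1.75).

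Under the H2 limit, Cxcl9 was higher in sGC-∆PC (84.1 and 118 CPM, interval of the log2 ratio 0.39 to 0.59) and Cxcl10 was at 104 and 103 CPM (-0.12 to 0.08). In the C1q-low cells over the limit, both were higher in sGC-∆PC, with Cxcl9 at 320 and 481 CPM (0.59, 0.44 to 0.74) and Cxcl10 at 92.2 and 132 CPM (0.52, 0.24 to 0.80). The list median was 0.38 under the H2 limit and 0.19 in the C1q-low cells over it. Over all C1q macrophages it was 0.35, with 20 of 25 genes above 0. The medians over all genes were -0.04, 0.01 and -0.04 in that order. Cells of middle H2 level were more frequent in sGC-∆PC under the limit, a range that a few UMIs can reach in shallow cells. Their part in the list medians was not tested.

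The promoters of Cxcl10 and Ifit3 hold the letters searched for the interferon-stimulated response element, TTTC and again TTTC with 2 bases of any kind between them, and their 250 bases before the start (GRCm38.p6) are shown with these letters in capitals to go with the values above.
Cxcl10, chr5:92348890-92349139, minus strand: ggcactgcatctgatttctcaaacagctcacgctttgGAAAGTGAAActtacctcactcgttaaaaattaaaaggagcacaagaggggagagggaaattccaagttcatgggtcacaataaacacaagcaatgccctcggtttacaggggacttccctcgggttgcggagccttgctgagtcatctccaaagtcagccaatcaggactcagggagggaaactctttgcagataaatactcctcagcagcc
Ifit3, chr19:34583279-34583528, plus strand: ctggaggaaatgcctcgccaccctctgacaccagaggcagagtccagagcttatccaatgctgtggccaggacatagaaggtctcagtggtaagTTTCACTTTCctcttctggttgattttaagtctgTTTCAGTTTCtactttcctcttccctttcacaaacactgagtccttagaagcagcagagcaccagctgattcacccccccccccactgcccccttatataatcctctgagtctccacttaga
In Cxcl10 the letters stood on the other strand from 213 to 204 bases before the start, and in Ifit3 from 156 to 147 and from 122 to 113. They occurred in 2.98% of promoters.

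**Figure D4:**
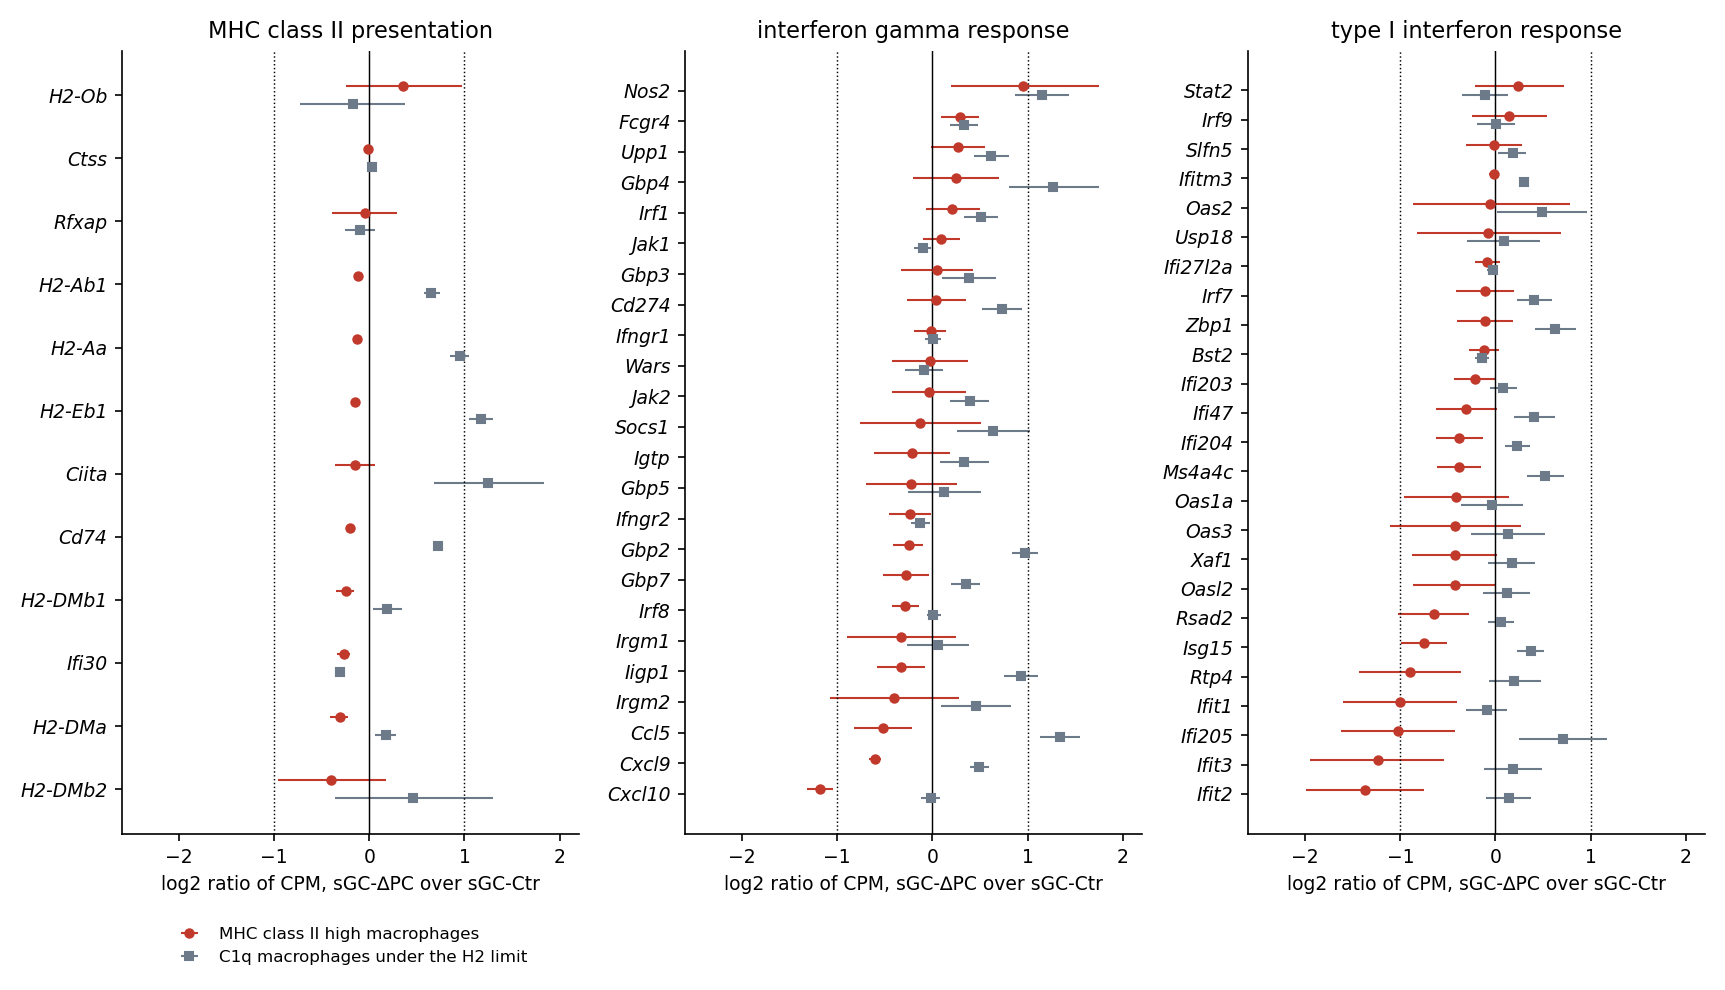
Log2 ratio of CPM, sGC-∆PC over sGC-Ctr, of the measured genes of 3 lists, 1 gene left out (class II presentation, interferon gamma response, type I interferon response) in members (circles) and in C1q macrophages under the H2 limit (squares); bars are exact conditional 95% intervals and dotted lines mark 2-fold. In members 23 of 25 type I interferon genes lay below 0, and under the H2 limit 22 of 28 measured genes of that list lay above 0. Over all genes, 53.5% lay below 0 in members and 41.3% above 0 under the H2 limit.

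Of the 12 genes with the interval farthest above 0, Ccl17 and Cxcl3 were chemokines. Ccl17, a ligand of CCR4 on T cells, had 11 UMIs in 3 members of sGC-Ctr (4.09 CPM) and 227 UMIs in 27 members of sGC-∆PC (50.9 CPM), 12.4-fold higher (log2 ratio 3.63, 2.77 to 4.66), with no cell holding over 10.1% of the sGC-∆PC UMIs. It had 0 and 9 UMIs in all the C1q macrophages under the limit, and 200 and 308 UMIs in the C1q-low cells over it. In members with at least 5000 UMIs its log2 ratio was 1.97, and in those of 5000 to 20000 UMIs it was 2.49. Cxcl3, which attracts neutrophils, was sparse at 8 and 63 UMIs (2.25, 1.18 to 3.52), with 31.7% of the latter in 1 cell, and it was abundant in granulocytes at 1068 and 1733 CPM. Of 18 measured chemokines Ccl17 and Cxcl3 were past 2-fold higher and Cxcl10 lower, against 0.524% and 0.310% of all genes. The list median was -0.05, and its sign turned under alternatives, to 0.40 at most. The inflammatory chemokine genes Ccl3 (54.0 and 79.8 CPM, 0.56, 0.28 to 0.85) and Ccl4 (71.8 and 111 CPM, 0.63, 0.39 to 0.88) and Ccl6 (728 and 977 CPM, 0.42) were higher below that size.

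Acod1, whose product makes itaconate in activated macrophages, had 34 and 212 UMIs (12.7 and 47.5 CPM, log2 ratio 1.91, 1.38 to 2.48). Its UMIs lay in 21 and 77 members, at most 9.43% of the sGC-∆PC UMIs in 1 cell. It is abundant in granulocytes, at 1781 and 1404 CPM, and under the H2 limit it was at 21.9 and 34.2 CPM. Slc7a2, a transporter of arginine, had 68 and 377 UMIs (25.3 and 84.5 CPM, 1.74, 1.36 to 2.13), and under the H2 limit the interval was 1.61 to 2.05. With members thinned to 1000 UMIs it was at 0.89. Mmp3, a matrix protease gene, had 21 and 168 UMIs (7.81 and 37.6 CPM, 2.27, 1.61 to 3.00). It stood higher in lymphocytes too, at 6 and 20 UMIs, and in granulocytes at 12 and 55 UMIs. Whether free RNA took part in the Mmp3 ratio was not tested. Inhba, which encodes a subunit of activin, had 11 and 80 UMIs, 63.6% of the former in 1 cell (2.13, 1.21 to 3.19), and its ratio was -0.04 thinned before the rule. Plet1 had 48 UMIs in 21 members of sGC-∆PC and 6 UMIs in sGC-Ctr, all in 1 cell (2.27, 1.04 to 3.78), and among members with at least 5000 UMIs the ratio was -1.11, but 2.67 within 5000 to 20000 UMIs.

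The other genes of this group rested on few cells or moved in every class. Chil3, a chitinase-like gene of monocytes and alternatively activated macrophages, had 10 and 184 UMIs (3.47, 2.56 to 4.55), with 39.1% of the latter in 1 cell, and its ratio was 3.17 without the richest cells and 0.93 thinned before the rule. Under the H2 limit its interval was 1.60 to 2.30. Edn1 had 3 and 65 UMIs (3.71, 2.09 to 6.02), 69.2% of them in 1 cell, and its ratio was 0.76 thinned before the rule. Hspb1 had 7 and 84 UMIs (2.85), 77.4% of them in 1 cell, and its ratio was 0.85 without the richest cells. Gm42418, which overlaps ribosomal RNA, was at 13023 and 32893 CPM (1.34), and Lars2, a mitochondrial leucyl-tRNA synthetase gene that also attracts ribosomal reads, at 421 and 1016 CPM (1.27). Both were higher in sGC-∆PC in lymphocytes and granulocytes as well, with intervals of 1.58 to 1.66 and 0.94 to 1.00 for Gm42418.

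Among the 12 genes with the interval farthest below 0, Cxcl10 and Ifit2 are described above. Tbc1d4, a regulator of glucose transporter traffic, had 77 and 30 UMIs (28.7 and 6.72 CPM, -2.09, -2.75 to -1.47), with 61.0% of the sGC-Ctr UMIs in 1 cell and a ratio of -1.71 without the richest cells. Col14a1, a collagen gene, had 84 UMIs in 47 members and 51 UMIs in 37 members (-1.45, -1.98 to -0.93), and Serpina3g, an interferon-induced protease inhibitor gene, had 123 and 82 UMIs (-1.32, -1.74 to -0.90). Eif3j2 had 40 and 17 UMIs (-1.97), and under the H2 limit its interval was -3.36 to -2.28. Rcn3 (33 and 17 UMIs), Cdc14a (34 and 18 UMIs) and Rrad (39 and 22 UMIs) were sparse, with ratios of -1.69, -1.65 and -1.56. The calls of these 3 genes did not hold under every alternative, while those of Tbc1d4, Col14a1, Serpina3g and Eif3j2 did: Rcn3 was at -0.38 thinned before the rule, and without cells with markers of other types Rrad was at -0.03 and Cdc14a at 0.47.

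For the last 3 genes of this group most sGC-Ctr UMIs lay in a single cell. Crabp1, a marker of the LLC cells, had 87 and 26 UMIs (-2.47) with 87.4% of the former in 1 cell, and its ratio was 0.35 without the richest cells. Col1a2, a fibroblast gene, had 157 and 113 UMIs (-1.21) with 86.0% in 1 cell, and its ratio was 1.30 without them. Mfge8, which bridges dying cells to phagocytes, had 194 and 77 UMIs (-2.07) with 68.6% in 1 cell, and its ratio was -0.46. Without the sGC-Ctr member called a doublet, Crabp1 was at 0.46 and Col1a2 at 1.59.

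**Figure D5:**
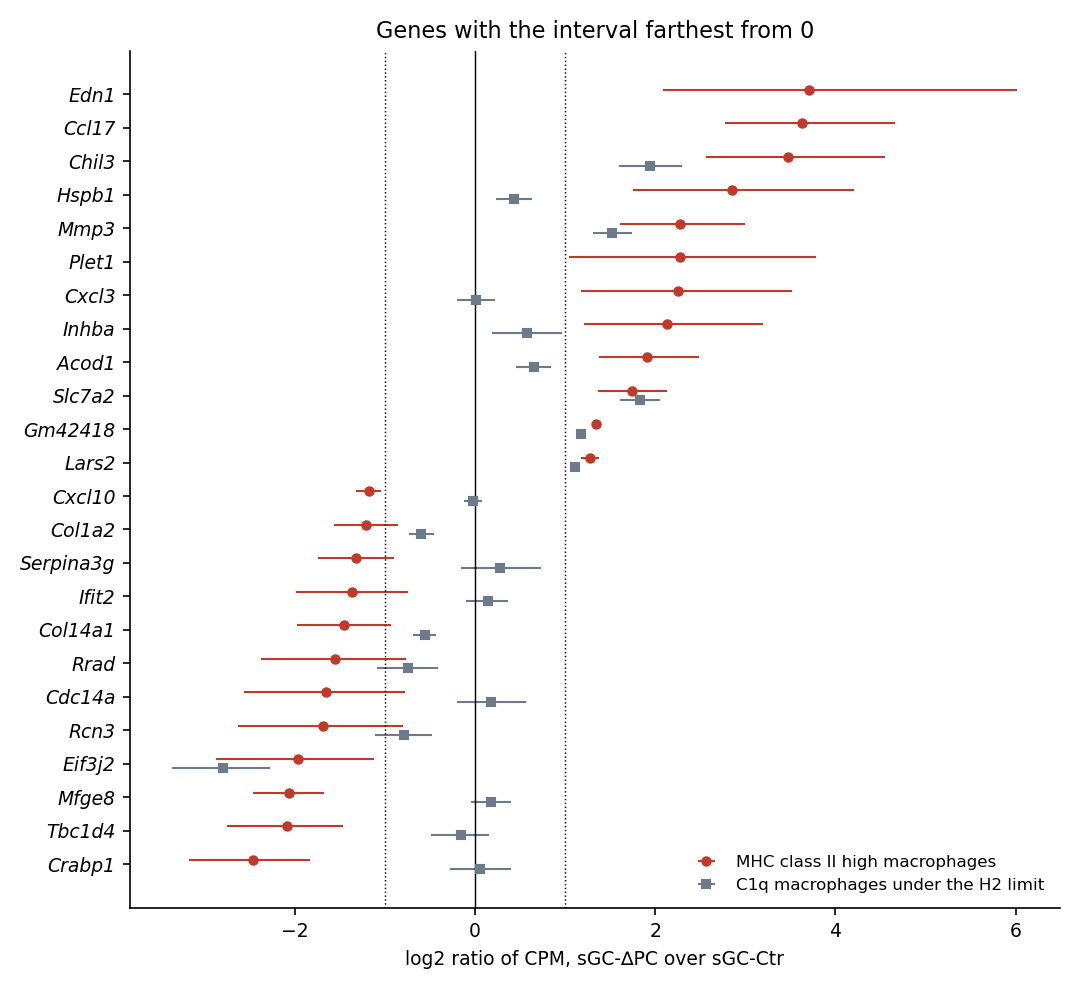
Log2 ratio of CPM, sGC-∆PC over sGC-Ctr, of the 12 genes with the 95% interval farthest above 0 and the 12 farthest below 0 in members (circles), with the same genes in C1q macrophages under the H2 limit (squares, where at least 50 UMIs were counted); bars are exact conditional 95% intervals and dotted lines mark 2-fold. Ccl17 stood at 3.63 and Cxcl10 at -1.18 in members, and Slc7a2 and Eif3j2 lay on the same side of 0 in both classes.

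Lists commonly taken as M1-like or M2-like were read in the same way. Over all genes of members, 0.524% were past 2-fold higher and 0.31% lower. Of 19 measured M1-like genes Cxcl10 alone was past 2-fold, lower, and the median was -0.13, with -0.48 to -0.08 over the alternatives. Il1b, the interleukin 1 beta gene, was at 902 and 825 CPM (-0.13, -0.20 to -0.05; over the alternatives -0.54 to 0.12, so its sign was not stable) and Tnf at 65.1 and 52.0 CPM (-0.33). Of 16 M2-like genes Chil3 and Mmp9 were past 2-fold, higher. The median was 0.05, with -0.12 to 0.11 over the alternatives, so its sign was not stable. Mmp9 had 14 and 66 UMIs, 60.6% of the latter in 1 cell, and its log2 ratio was 0.35 without the richest cells. Vegfa, the vascular growth factor gene, was at 68.8 and 121 CPM (0.81, 0.57 to 1.06), and Il1rn, the interleukin 1 receptor antagonist gene, at 122 and 171 CPM (0.48, 0.29 to 0.67). Mrc1 was at 322 and 337 CPM, with an interval of -0.06 to 0.19, and ranged from -0.13 to 0.83 over the alternatives.

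In lipid handling, Apoe, the apolipoprotein E gene, was at 4677 and 2820 CPM (log2 ratio -0.73, -0.77 to -0.69), and under the H2 limit its interval was -0.80 to -0.76. Mmp12, the macrophage elastase gene, was at 225 and 396 CPM in members (0.82, 0.68 to 0.95), while under the H2 limit its interval was -0.10 to 0.05. In the C1q-low cells over the limit Mmp12 was past 2-fold higher in sGC-∆PC. Spp1, the osteopontin gene, was at 835 and 840 CPM. None of 21 measured lipid genes was past 2-fold, and the list median was 0.01. The fatty acid receptor gene Cd36, of the scavenger receptor list, had 33 and 118 UMIs (1.11, 0.54 to 1.71). In that list, Cd36 was past 2-fold higher and Mfge8 lower among 23 measured genes, against 0.524% and 0.31% of all genes. Mfge8 was at -0.46 without the richest cell of each library. Without cells with markers of other types Cd36 was at 0.38.

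In most other lists no gene was past 2-fold. The median log2 ratio was 0.07 for MHC class I presentation (22 genes measured), 0.00 for complement (14), -0.09 for Fc receptors (14), -0.02 for lysosome (29), 0.03 for hypoxia and glycolysis (28), 0.01 for costimulation and checkpoints (19), 0.05 for inflammation (23), 0.04 for myeloid transcription factors (24) and -0.06 for chemokine and growth factor receptors (21), with no gene past 2-fold in any of these lists. It was 0.13 for immediate early and heat shock genes (29) and 0.20 for integrins (17), again with none past 2-fold. Several of these medians turned sign or moved under alternatives, to as low as -0.28 for transcription factors, -0.35 for costimulation, -0.30 for Fc receptors, -0.25 for complement, -0.29 for receptors, -0.22 for lysosome, -0.12 for immediate early genes and -0.13 for integrins. Within them Fosb (90.4 and 175 CPM, 0.95, 0.74 to 1.16) and the phosphatase gene Dusp1 (393 and 657 CPM, 0.74, 0.64 to 0.84), both early response genes, were higher, and the fractalkine receptor gene Cx3cr1 (334 and 233 CPM, -0.52, -0.65 to -0.39) was lower. Of the receptors for the cytokine MIF, which include CD74, Cd44 was at 277 and 358 CPM (0.37, 0.25 to 0.50) and Cxcr4 at 62.1 and 78.9 CPM (0.34, 0.07 to 0.62), while Mif itself was at 886 and 900 CPM (interval -0.05 to 0.10).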

How the data were processed

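The deposited matrices hold raw UMI counts per gene and barcode for 1 library of each group. The authors made them with Cell Ranger 6.1.1 on mm10, per the labels, and no filter or cluster label of theirs was used here. Members were found by the stated rule on raw counts. Counts of 32285 genes were summed over members, scaled to CPM and compared as log2 ratios (0.5 UMIs added for calls, medians and alternatives, none for the ratio of a single gene), for genes with at least 50 UMIs. Intervals are exact Poisson, binomial (Clopper-Pearson) and conditional intervals at 95%. The rule, the members and the gene lists (497 of 503 list genes are in the files) were chosen with earlier results of these data known. Named genes are the 12 with the interval farthest above and the 12 farthest below 0, genes of the rule left out, list genes past 2-fold or most abundant, the markers and rule genes, and the 12 genes highest in members against the other C1q macrophages; the 12 lowest, and other list genes given with values, were chosen after their values were seen. Doublets were scored with Scrublet in scanpy 1.11.5 and left in. Numpy 2.4.6, scipy 1.17.1, pandas 2.3.3 and matplotlib 3.10.9 were run under Python 3.11.15. In simulated counts for members, with 200 of 8393 genes changed, 100% of these came out in the right direction and 95.5% of intervals held the true value. These counts were Poisson sums from a shared profile, with no spread between cells or libraries, as the intervals assume. The share of intervals was thus largely set in advance and does not check the intervals in the real counts. Promoters are from RefSeq, GRCm38.p6. Depths are given with the members. Some genes are not reported here. Cells of 1 library are not replicates.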

Additional observations from a re-analysis of the deposited data

Results flagged for a closer look

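In all 7 genes of the lists, genes of the rule left out, lay on opposite sides of 0 in members and in C1q macrophages under the H2 limit, with both intervals away from 0 and log2 ratios (sGC-∆PC over sGC-Ctr) at least 1 apart; with 1 library per genotype this difference was not tested. They were lower in members and higher under the limit. The values were -0.52 and 1.34 for Ccl5, -0.60 and 0.49 for Cxcl9, -0.25 and 0.97 for Gbp2, -1.02 and 0.71 for Ifi205, -0.33 and 0.93 for Iigp1, -0.75 and 0.37 for Isg15, and -0.59 and 0.44 for S100a8. Apart from S100a8, a granulocyte gene, these are interferon targets or chemokines. Over all C1q macrophages, without the H2 limit, the ratios were 0.89 for Ccl5, 0.24 for Cxcl9, 0.70 for Gbp2, 0.25 for Ifi205, 0.66 for Iigp1, 0.16 for Isg15 and 0.26 for S100a8. The share of cells between 500 and 4000 CPM of H2 RNA moved with these ratios, and neither its part nor that of depth was tested.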

How the results depend on the processing

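No paired analysis was possible because each group has 1 library and the labels carry no replicate numbers. The share of members among C1q macrophages was higher in sGC-∆PC under all 12 alternatives, at 9.91% to 17.1% in sGC-Ctr and 15.4% to 30.1% in sGC-∆PC. It was 17.1% and 30.1% with an H2 limit of 2000 CPM, 11% and 15.4% with 8000 CPM, and 9.91% in sGC-Ctr without cells holding markers of other types, a filter that left 43 and 112 members. The counts of genes past 2-fold depended on depth and filter. They were 82 higher at 2000 CPM, 28 higher without cells with other markers, 25 higher and 15 lower after thinning members to 1000 UMIs, 161 and 61 with the mean of single-cell CPM, 178 and 89 at 20 UMIs per gene, and 8 and 4 at 200 UMIs.

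The median of the class II list was -0.30 without cells with other markers, -0.31 and -0.42 thinned after and before the rule, and -0.32 with single-cell means. For chemokines it was 0.40, 0.19, 0.18 and 0.24 in that order and 0.25 at 5000 to 20000 UMIs, so its sign turned. Without cells with other markers it was -0.27 for scavenger receptors, -0.15 for lipid genes, -0.22 for lysosome, -0.12 for immediate early genes, -0.28 for transcription factors and -0.19 for MIF receptors. Thinned after the rule it was -0.44 for interferon gamma and -0.23 for transcription factors. Thinned before the rule it was -0.48 for M1-like genes, -0.25 for complement, -0.30 for Fc receptors, -0.35 for costimulation, -0.11 for immediate early genes, -0.13 for integrins and -0.24 for transcription factors. The cause was not tested beyond the fewer cells or UMIs that each leaves.

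The sign of some called genes turned (log2 ratios, 0.5 UMIs added). G0s2 was at -1.69 from 5000 UMIs, -1.62 at 5000 to 20000 UMIs, -0.92 at 8000 CPM of H2, -0.58 at 2000 CPM of C1q, -0.15 at 200 CPM of cancer RNA and -0.14 at 5% mitochondrial. Plet1 was at -1.11 from 5000 UMIs, and Mmp9 at -0.53 at 8000 CPM. Col1a2 and Crabp1 were at 1.59 and 0.46 without called doublets, 1.30 and 0.41 without the top 5% of doublet scores, 1.58 and 0.46 at 5000 to 20000 UMIs, 1.30 and 0.35 without the richest cells, and 3.64 and 2.90 without cells with other markers; Col1a2 was at 1.16 thinned before the rule. That marker filter also gave 0.47 for Cdc14a, -0.76 for Hspb1, 0.09 for Ifi205, 1.01 for Ifit2, 2.05 for Ifit3 and -0.27 for Mmp9. Thinning before the rule gave -0.05 for Hspb1, 0.16 for Ifit2 and -0.04 for Inhba. Cxcl10 stayed between -1.43 and -0.52, Cxcl9 between -1.04 and -0.48, Apoe between -1.21 and -0.71, and Ccl17 between 1.23 and 5.27. The top doublet scores, the range of 5000 to 20000 UMIs and the richest cells were added after the data were seen.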

Other observations

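A few list genes fell under the minimum of 50 UMIs in members but differed in the number of cells or UMIs. Ccl24, an eotaxin gene, had 4 UMIs in 4 members of sGC-Ctr and 38 UMIs in 17 members of sGC-∆PC, and Lcn2, the lipocalin 2 gene, had 1 UMI and 25 UMIs in 16 members. Ccl22, which like Ccl17 encodes a CCR4 ligand, had 23 UMIs in 9 members of sGC-Ctr and 7 UMIs in 7 members of sGC-∆PC. Retnla had 33 UMIs in sGC-Ctr, 30 of them in 1 cell, and 14 UMIs in 8 members of sGC-∆PC. Marco had 20 UMIs in sGC-∆PC, 19 of them in 1 cell, and none in sGC-Ctr. These genes were chosen after their values were seen.

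Cspg4, the gene whose promoter drives Cre in sGC-∆PC mice, was counted in the C1q macrophages under the H2 limit at 1094 UMIs (61.2 CPM) in sGC-Ctr and 599 UMIs (39.8 CPM) in sGC-∆PC, against 11 and 19 UMIs (4.09 and 4.26 CPM) in members. It had no UMI in lymphocytes or granulocytes of either library. Whether the knock-in allele of sGC-∆PC mice took part in these levels was not tested.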
